A study of Saccharomyces cerevisiae with 5 samples.

Results

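The genes of glycogen metabolism were examined in budding yeast, Saccharomyces cerevisiae, as 10 genes chosen by name: PGM1, PGM2, GLG1, GLG2, GSY1, GSY2, GLC3, GAC1, GPH1 and GDB1. All 10 were found on the array, among 6256 genes in all, and each was measured by 1 probe printed as 7 spots. On each of 5 two-colour arrays, total RNA labelled with the green dye Cy3 was hybridised together with genomic DNA labelled with the red dye Cy5, both from the strain that the labels call Sigma 1287b, L5366. The cells had grown at 30 °C to mid-log phase, in what the study's methods describe as a rich medium, and no arrays of another condition were analysed here. All 5 arrays therefore form 1 group, with arrays 4 and 5 scanned in a second session and arrays 1 to 3 in a first. The second session used a slide of its own, and the dyes were not swapped. The labels number the RNA samples without saying that they came from separate cultures. The study's methods describe biological replicates, but fewer than the 5 arrays here. SDs and p-values therefore measure the spread between these samples, which may be technical.

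Glycogen is the branched glucose polymer that yeast lays down as a carbohydrate reserve, mostly as sugar runs low or as cells meet stress. Phosphoglucomutase turns glucose-6-phosphate into glucose-1-phosphate, which becomes UDP-glucose, and glycogenin uses UDP-glucose to start a chain on itself. Glycogen synthase then lengthens the chain and the branching enzyme adds side branches. Phosphorylase and the debranching enzyme take the polymer apart. Synthase is active when dephosphorylated by protein phosphatase 1, which targeting subunits bring to it.

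The level of a gene was taken as the log2 ratio of its RNA signal to its genomic DNA signal after background subtraction, relative to the median gene of the same array. Genomic DNA holds each single-copy gene equally, so it serves as a shared denominator that allows 1 gene to be set against another. Copy number in this strain was not tested, and neither was cross-hybridisation between paralogs, since the files give no probe sequences. Levels are given below as log2 values, where 0 is the median gene.

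Of the 10 genes, 9 lay below the median gene and PGM1 alone lay above it. Member levels spanned 5.10 log2 units, with GAC1 the lowest at -3.88 ± 0.09 and PGM1 the highest at 1.22 ± 0.05 (SD, n = 5 arrays). The median member level was -1.76, against -0.0023 over all 6256 genes. In a limma fit across all genes, each member differed from the median gene at adjusted p-values between 4.94e-12 and 1.41e-08. That call was common: 47.7% of all genes were called above and 47.6% below, while of the 10 members 1 was called above and 9 below. With Agilent's processed signals, or after each array was corrected by a loess curve of ratio against brightness, 8 of the 10 lay below, and most members lay closer to the median gene. Brightness was the mean log2 signal of both channels, so it shares the RNA signal with the level that the loess curve corrects.

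**Figure D1:**
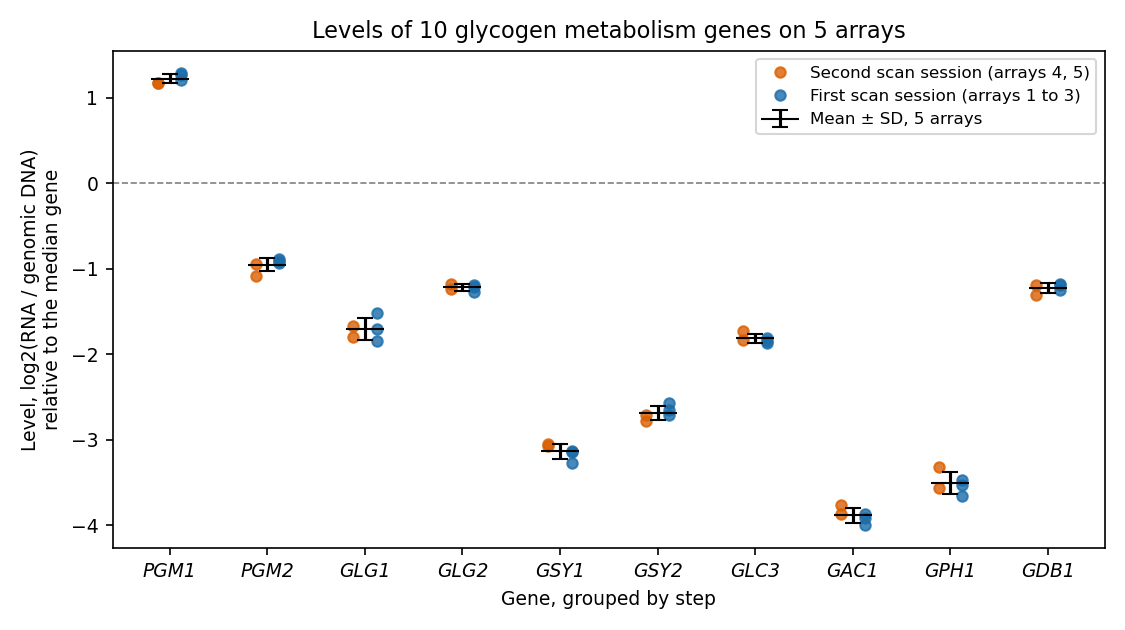
Level of each gene on each array (vertical axis, log2 ratio of RNA to genomic DNA relative to the median gene, dashed line), with points for arrays of the second and the first scan session and bars for the mean ± SD of 5 arrays. PGM1 is above 0 on all 5 arrays and the 9 other genes are below 0 on all 5.

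PGM1 and PGM2 encode the phosphoglucomutases that supply glucose-1-phosphate, and PGM2 is known as the major form of the enzyme. PGM1 read 1.28, 1.26, 1.21, 1.17 and 1.17 on arrays 1 to 5, which is 2.33 times the median gene and percentile 75.9 of all genes. PGM2 read -0.89, -0.93, -0.91, -1.09 and -0.94, a mean of -0.95 ± 0.08 (SD, n = 5) and percentile 29.6. No array of one gene overlapped any array of the other. Within arrays, PGM2 minus PGM1 averaged -2.17 ± 0.06 and ran between -2.25 and -2.11, so PGM2 stood 4.50-fold lower. The difference lay in the RNA channel, where PGM2 minus PGM1 was -3.02 in log2 signal, and the genomic DNA channel, at -0.85, narrowed it in the ratio. After the loess correction the difference turned to 0.68, with PGM2 at 0.32 and PGM1 at -0.36. With the signals that Agilent's software had processed, PGM2 read 0.093 and PGM1 0.13, and PGM2 minus PGM1 was only -0.037 (exact permutation p = 0.5, n = 5 arrays).

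GLG1 and GLG2 encode the glycogenins, the self-glucosylating proteins on which a new glycogen chain starts. GLG2 gave -1.19, -1.21, -1.27, -1.24 and -1.18 on arrays 1 to 5, at percentile 25.4, and its SD of 0.04 was the smallest of the 10 genes. GLG1 gave -1.85, -1.71, -1.51, -1.68 and -1.79, at percentile 19.1, and its SD of 0.13 was the largest. GLG2 was the higher of the 2 on every array, and their ranges did not overlap. GLG2 minus GLG1 averaged 0.49 ± 0.17 (SD, n = 5), from 0.24 on array 3 to 0.67 on array 1. The log2 RNA signal of GLG2 exceeded that of GLG1 by only 0.19 ± 0.19, and its log2 genomic DNA signal differed by -0.30 ± 0.06, so much of the difference in level lay in the denominator. After loess GLG2 read 0.33, above the median gene.

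GSY1 and GSY2 encode the glycogen synthases, of which GSY2 is known as the major form, made mainly as growth slows. GSY2 stood at -2.65, -2.71, -2.57, -2.78 and -2.71 on arrays 1 to 5, a mean of -2.68 ± 0.08 (SD, n = 5) and percentile 11.3. GSY1 stood at -3.27, -3.13, -3.14, -3.05 and -3.08, a mean of -3.13 ± 0.09 and percentile 8.08. Both were thus far below the median gene, by 6.42-fold for GSY2 and 8.77-fold for GSY1, and GSY2 was the higher on each array without overlap. The size of these folds depended on the processing. With Agilent's processed signals GSY2 read -2.15 and GSY1 -1.77, and after loess they read -2.02 and -1.19. GSY2 minus GSY1 averaged 0.45 ± 0.15, with 0.32 in the second scan session and 0.54 in the first. GSY2 had the brightest genomic DNA signal of the members, at a mean intensity of 21360 and percentile 93.1 of all genes. Its log2 RNA signal exceeded that of GSY1 by 0.93 and its log2 genomic DNA signal by 0.46. The order of the synthases rested on the processing: the difference was -0.041 with normexp background correction (a model that keeps all signals positive), -0.38 with Agilent's processed signals and -0.83 after loess.

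GLC3 encodes the branching enzyme. Its levels were -1.87, -1.81, -1.84, -1.83 and -1.73 on arrays 1 to 5, a mean of -1.82 ± 0.05 (SD, n = 5) and percentile 17.9. That mean was 3.52-fold below the median gene, close to GLG1 and above GSY2 on each array, though by RNA signal alone GLC3 stood at -1.94 and GSY2 at -1.78. After loess it read -0.060, with a limma adjusted p of 0.195 against the median gene.

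Among the genes for breakdown, GDB1 encodes the debranching enzyme and GPH1 the phosphorylase that releases glucose-1-phosphate from chain ends. GDB1 read -1.17, -1.19, -1.25, -1.19 and -1.31 on arrays 1 to 5, a mean of -1.22 ± 0.06 (SD, n = 5) and percentile 25.2. GPH1 read -3.52, -3.65, -3.47, -3.57 and -3.31, a mean of -3.51 ± 0.13 and percentile 5.99. The arrays of the 2 genes did not overlap. GPH1 minus GDB1 averaged -2.28 ± 0.18, with its largest size of -2.46 on array 2. The RNA signal of GPH1 limits this value, since only 0 and 1 of its 7 spots were well above background on arrays 4 and 5. The difference also varied with the processing. GPH1 minus GDB1 was -2.03 with normexp, -1.13 with Agilent's processed signals and -0.36 after loess. In the background-subtracted signals the genomic DNA signals were close, differing by 0.09 in log2, and the log2 RNA signals differed by -2.20.

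GAC1 encodes a targeting subunit that directs protein phosphatase 1 to glycogen synthase. It read -3.87, -3.91, -4.00, -3.76 and -3.87 on arrays 1 to 5, the lowest mean of the members at percentile 3.49 of all genes. GSY2 was instead the lowest with normexp (-3.14, with GAC1 at -3.12), with Agilent's processed signals (-2.15, with GAC1 at -1.53) and after loess (-2.02, with GAC1 at -0.26).

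For each of the 4 pairs the signs of the within-array differences were permuted exactly (two-sided), with p = 0.0625 in each case; 32 sign patterns can give no smaller p. The design cannot reach 0.05 for these pairs, adjusted or not. No pair changed direction on any of the 5 arrays.

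**Figure D2:**
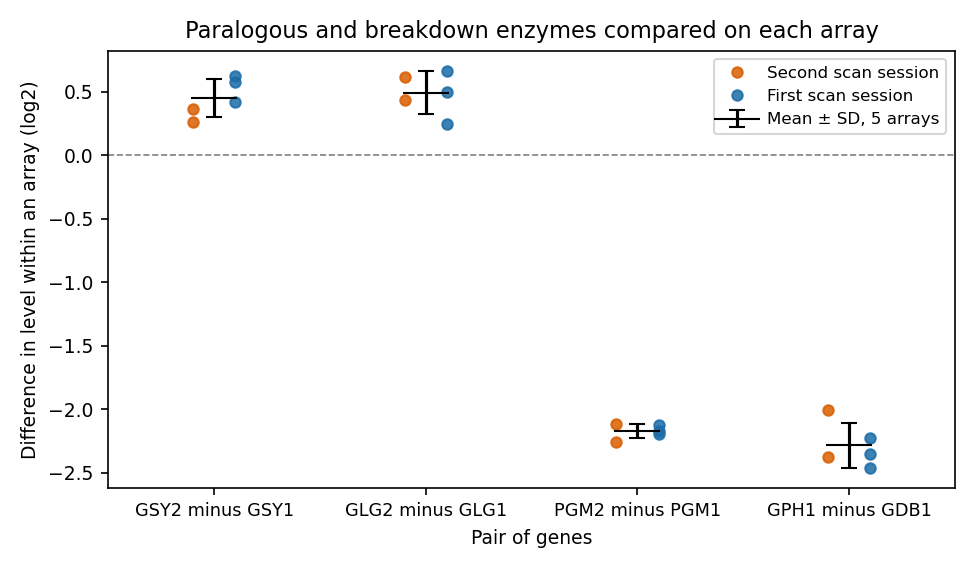
Difference in level within each array (vertical axis, log2, first gene minus second) for 4 pairs, with points for arrays of the second and the first scan session and bars for the mean ± SD of 5 arrays. GSY2 and GLG2 lie above their paralogs by 0.45 and 0.49, while PGM2 minus PGM1 and GPH1 minus GDB1 average -2.17 and -2.28.

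From high to low the order in this processing was PGM1, PGM2, GLG2, GDB1, GLG1, GLC3, GSY2, GSY1, GPH1 and GAC1. Of the 9 steps between neighbours, 7 held on all 5 arrays in this processing. GLG2 and GDB1 could not be ordered, since they differed by 0.0068 ± 0.07 and GLG2 was the higher on 1 of 5 arrays. GLG1 exceeded GLC3 by 0.11 ± 0.15, on 4 of 5 arrays. The steps from GSY1 to GPH1 (0.37 ± 0.14) and from GPH1 to GAC1 (0.38 ± 0.16) were larger than their SDs on every array. Both steps depended on the processing. GPH1 stood above GSY1 with normexp (-3.05 and -3.10), with Agilent's processed signals (-1.46 and -1.77) and after loess (-0.58 and -1.19). GAC1 stood above GPH1 after loess (-0.26 and -0.58). Other steps that held on all 5 arrays also reversed after loess. PGM1 then read -0.36, PGM2 0.32 and GLG2 0.33, and GSY2 read -2.02 and GSY1 -1.19. By RNA signal alone GSY2 stood above GLC3 (-1.78 and -1.94). On arrays 4 and 5 the RNA signals of GPH1 and GAC1 were also near background.

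**Figure D3:**
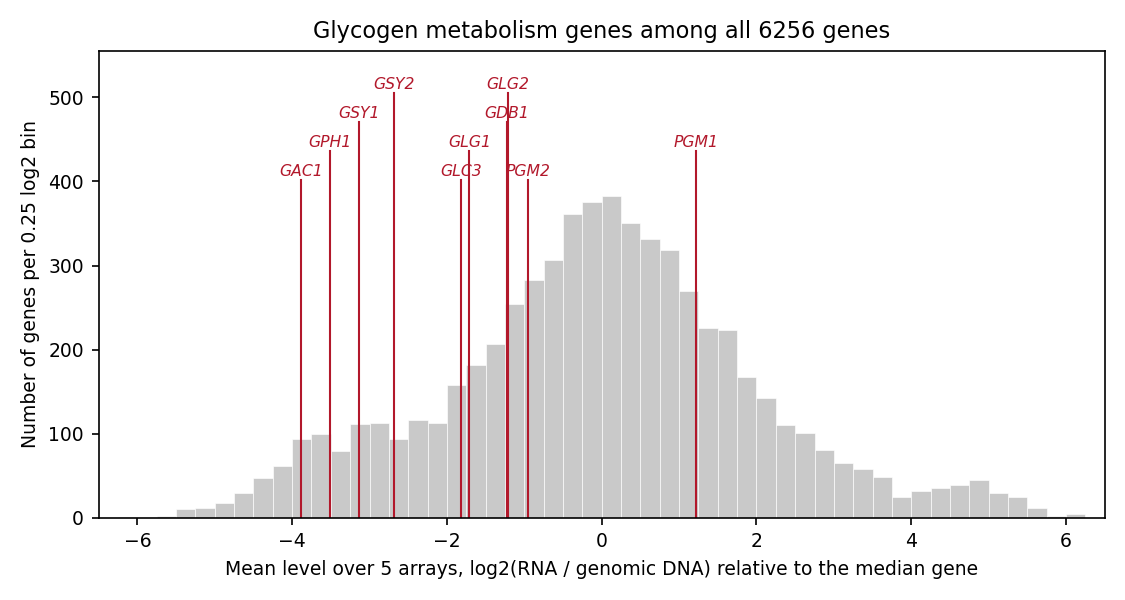
Number of genes (vertical axis) by mean level over 5 arrays (horizontal axis, log2 relative to the median gene, in bins of 0.25) for all 6256 genes, with a red line at each glycogen gene; the heights of the red lines carry no value. GAC1, GPH1, GSY1 and GSY2 stand in the lower shoulder of the distribution and PGM1 to the right of its peak.

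The signals behind the levels show how well each gene was measured. Genomic DNA gave member intensities between 9133 for PGM2 and 21360 for GSY2 (means of 5 arrays), and all 35 spots of each member were well above background in that channel. In the RNA channel the mean intensity was 5544 for PGM1, between 428 and 677 for PGM2, GLG1, GLG2, GSY2, GLC3 and GDB1, 254 for GSY1, 152 for GPH1 and 91.1 for GAC1. The negative control spots had median RNA-channel intensities of 40, 22, 22, 74 and 81 on arrays 1 to 5.

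**Figure D4:**
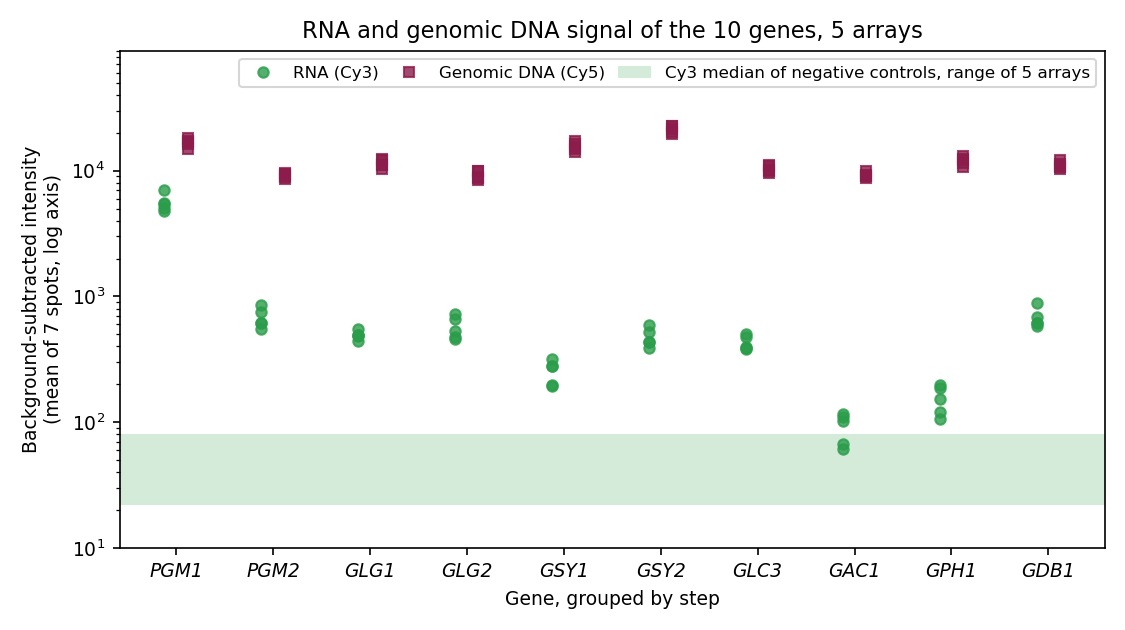
Background-subtracted intensity (vertical log axis) of each gene in the RNA channel (circles) and the genomic DNA channel (squares), 1 point per array, with a band for the lowest to highest array median of the negative control spots in the RNA channel. Mean genomic DNA signals lie between 9133 and 21360, while mean RNA signals lie between 5544 for PGM1 and 91.1 for GAC1, near the band.

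GPH1 and GAC1 were thus close to the limit of the RNA channel, and only on some arrays. On arrays 1, 2 and 3, 7, 7 and 7 spots of GPH1 and 7, 7 and 6 spots of GAC1 were well above background, while arrays 4 and 5 had 0 and 1 such spots for GPH1 and 0 and 0 for GAC1. The drop was not particular to these 2 genes. Of all gene spots, 98.7%, 98.8% and 97.7% were well above background in the RNA channel on arrays 1 to 3. On arrays 4 and 5 the shares were 91.7% and 90.9%. GAC1's RNA signal was 1.38 and 1.43 times the median of the negative controls on arrays 4 and 5, and 2.73, 3.06 and 2.78 times on arrays 1 to 3. For GPH1 the same ratio was 2.06 and 2.42 on arrays 4 and 5, and 4.66, 4.81 and 5.52 on arrays 1 to 3. Taking the arrays of the first session alone, GAC1 stood at -4.11 and GPH1 at -3.69, and with the second session alone at -3.56 and -3.25. With the negative controls subtracted in place of the local background, GAC1 stood at -5.02 and GPH1 at -4.00, while other processing brought both closer to the median gene. GAC1 read -3.12 with normexp, -1.53 with Agilent's processed signals and -0.26 after loess, and GPH1 read -3.05, -1.46 and -0.58 in the same 3 settings. No fold of the median gene is therefore given for these 2 genes, and the log2 differences that involve them carry the same limit.

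Member levels by the ratio and by RNA signal alone ran in nearly the same order. Spearman's rho between the 2 rankings was 0.952 over the 10 genes, given as a description because both measures share the RNA signal. Of the 10 genes, 5 had the same rank by both. GDB1 moved most, by 2 places, to rank 2 by RNA signal from rank 4 by level.

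After quantile normalization, repeat measurements of the members spread as those of other genes did. This normalization gives all arrays the same distribution of ratios, so the SDs between arrays leave out differences in that distribution. The SD between arrays ran from 0.039 for GLG2 to 0.129 for GLG1 with a median of 0.080, against a median of 0.080 over all genes. The median SD between the spots of a probe was 0.113 for the members and 0.109 for all genes. Of 350 member spots, 6 were left out for an outlier mark and none was saturated.

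Between the scan sessions, no member passed the limma test, against 2.64% of all genes. Second-session minus first-session differences ran from -0.11 for GSY2 to 0.12 for GSY1, with 5 members higher and 5 lower and adjusted p-values between 0.341 and 0.909. At an unadjusted p of 0.05, 0 members and 1262 of 6256 genes passed. The count of members called between sessions was 2 (GSY2 and GAC1) with the slide as a random block, where 35.8% of all genes passed. In that fit the correlation within slides was estimated at -0.68, and a negative value narrows the standard error between sessions. The count was 8 when only spots well above background were used, where 37.5% passed.

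The genes that feed and steer glycogen metabolism were spread on both sides of the median gene. Of 28 such genes in 3 lists, 13 were called above (46.4%) and 15 below (53.6%), near the 47.7% and 47.6% of all genes, and their median level was -0.26. The counts above and below were 14 and 14 by RNA signal alone, 11 and 16 with normexp and 10 and 17 with Agilent's processed signals. After loess they were 9 and 17, where 2843 and 2861 of all 6256 genes were called. Upstream of the glycogenins, UGP1, which makes UDP-glucose from glucose-1-phosphate, stood at 1.31 ± 0.08 (SD, n = 5), close to PGM1 at 1.22 ± 0.05. The supply genes also held the hexokinases HXK2 at 3.03 ± 0.13 and HXK1 at -3.12 ± 0.09. SGA1, a glucoamylase of sporulating cells that also breaks glycogen down, stood at -3.26 ± 0.12, between GSY1 and GPH1. Of the 7 genes in this list 3 were above and 4 below, with a median of -1.41.

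Of the 16 regulators 8 were above and 8 below, with a median of -0.12. The highest were GLC7, the catalytic subunit of protein phosphatase 1, at 2.83 ± 0.07 and SNF1, the energy-sensing kinase needed for glycogen storage, at 1.99 ± 0.05. The lowest were GIP2 at -2.95 ± 0.10 and PIG1 at -1.80 ± 0.05, which like GAC1 encode subunits that bind Glc7. A further subunit of this kind, PIG2, named here after its level was seen, stood at -0.43 ± 0.11. GAC1 had the lowest mean of the 4 targeting subunits here, but GIP2 was the lowest with Agilent's processed signals (-1.61) and after loess (-1.01). Within arrays GLC7 exceeded GIP2 by 5.78 ± 0.13, PIG1 by 4.63 ± 0.09 and PIG2 by 3.26 ± 0.15. These differences were smaller with Agilent's processed signals and after loess, but not in every setting. With the negative controls subtracted, GLC7 read 2.88 and GIP2 -3.20. With Agilent's processed signals GLC7 read 1.02, PIG2 0.16 and PIG1 -1.05. After loess GLC7 read 0.64, PIG2 0.53 and PIG1 -0.87. No difference from GLC7 is given for GAC1, whose RNA signal was not well above background on arrays 4 and 5.

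The stress transcription factors included MSN2 at 0.87 ± 0.11 and MSN4 at 0.79 ± 0.08, which encode activators known to bind promoters of several glycogen genes under stress. GIS1 at -0.55 ± 0.08 and HSF1 at -0.60 ± 0.08 were the lowest of the 5, of which 2 were above and 3 below. All 5 were higher than PGM2, the second highest member.

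Trehalose is the other carbohydrate reserve of yeast and draws on the same UDP-glucose. Of its 7 genes 2 were above, 4 below and 1 not called, with a median of -0.21, against -1.76 for the 10 glycogen genes. TPS3 at 0.94 ± 0.14 and TPS2 at 0.29 ± 0.07, which encode subunits of the synthase complex, were the highest. ATH1, the acid trehalase, at -2.26 ± 0.10 and TSL1, another subunit of the complex, at -2.52 ± 0.12 were the lowest, near GSY2. Upper glycolysis, which shares glucose-6-phosphate with the glycogen branch, had a median of 3.30 over 8 genes, with 7 above and 1 below. FBA1 (aldolase) at 5.13 ± 0.08 and TPI1 (triose phosphate isomerase) at 4.67 ± 0.10 were its highest, while GLK1 (glucokinase) at 0.17 ± 0.17 and HXK1 were its lowest. The difference between lists was not tested.

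**Figure D5:**
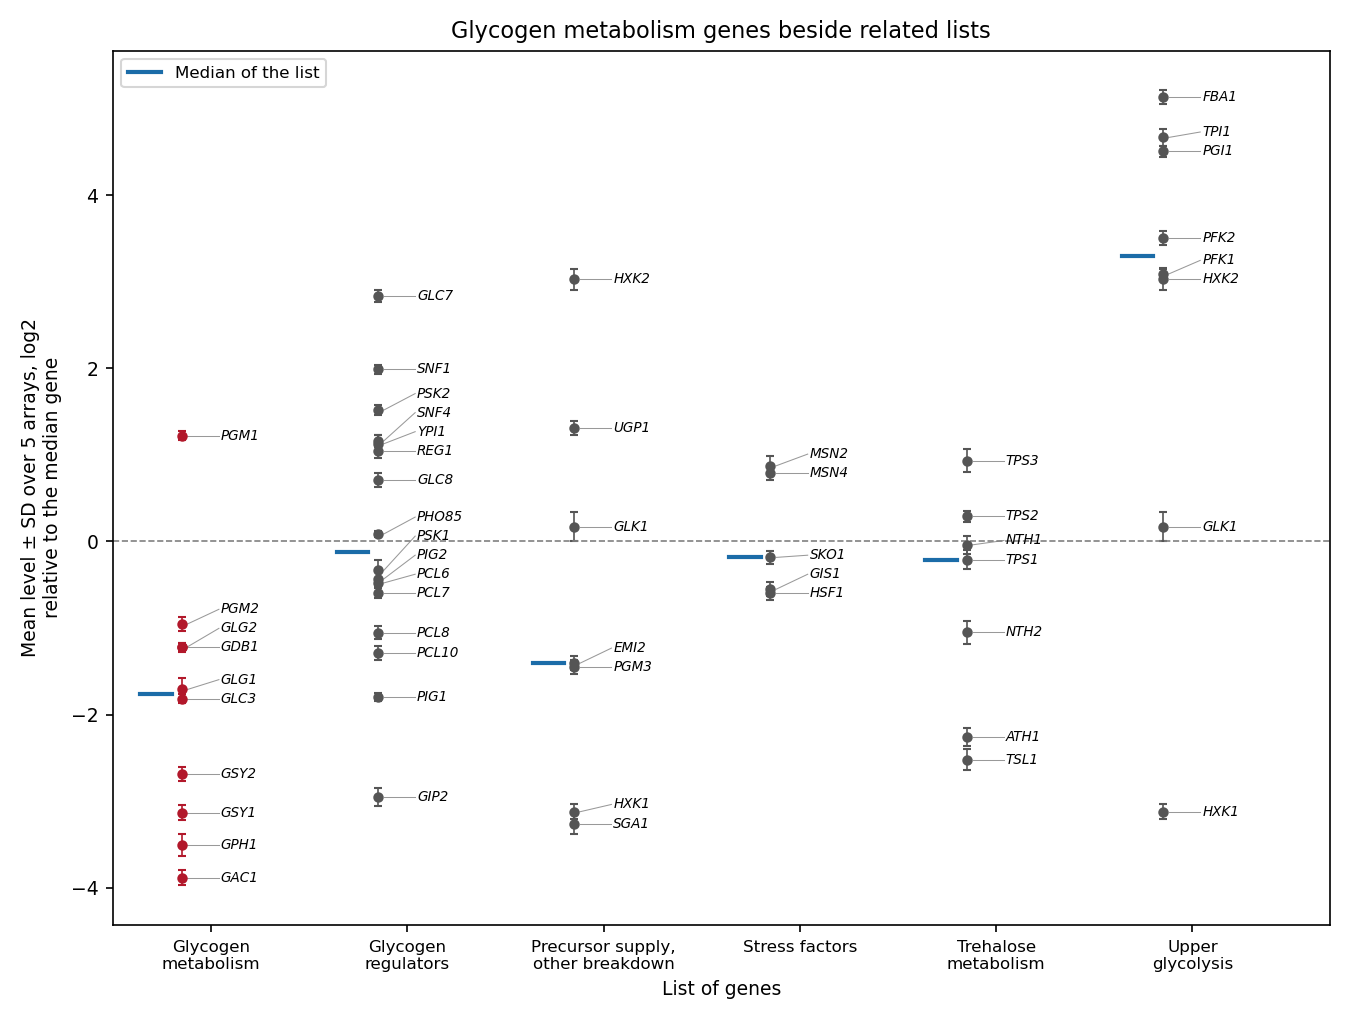
Mean level ± SD over 5 arrays of each gene (vertical axis, log2 relative to the median gene, dashed line) in the glycogen genes (red, left) and 5 related lists (grey), with blue bars for list medians; thin lines join points to names, and HXK1, HXK2 and GLK1 are in both the supply list and upper glycolysis. Medians are -1.76 for the glycogen genes, -0.21 for trehalose metabolism and 3.30 for upper glycolysis.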

How the data were processed

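The deposited scanner files hold spot intensity values, which Agilent Feature Extraction (release 10.1.1.1 in their headers) wrote as median pixel values of spot and local background, flags of 0 or 1, and signals that the software had background-subtracted and dye-normalized. The authors also deposited log2 ratios of Cy3 over Cy5 per probe, used as an alternative; their column medians (-2.62, -2.89, -2.91, -3.01 and -2.57) show no centring, and 89.4% to 99.6% of genes matched ratios without background subtraction (tolerance 0.001). No source used here names a genome build.

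Following the study's methods, background was subtracted in both channels and log2 ratios were quantile normalized (limma 3.58.1, R 4.3.3), after leaving out control and outlier spots and averaging the 7 spots. Gene names stood in the files of arrays 4 and 5 and were carried to the others by probe. YPI1 and PGM3 were named through RefSeq locus tags. Arrays had 43792 gene spots, median intensities of 1406 to 1997 (RNA) and 11288 to 12951 (genomic DNA), and correlations of 0.992 to 0.998; their number limits the precision.

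Levels were tested against 0, and scan sessions against each other, with limma (lmFit, eBayes, Benjamini-Hochberg over 6256 genes, threshold 0.05); pairs with exact sign-flip permutation (32 patterns). The fits were tested on simulated data. Alternatives covered background, normalization, spot filters, slide block and leaving out arrays. All members were named, and of each list the 2 highest and 2 lowest genes. Members and lists were chosen with earlier results of these data known. A planned count of promoter motifs was not run, as no promoter sequences were at hand.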

Additional observations from a re-analysis of the deposited data

Results flagged for a closer look

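Of 33 sets of 5 array values examined, 3 had 1 array far from the other 4, where chance gives about 1 in 20. PGM2 was lowest on array 4, at -1.09, against -0.94 to -0.89 on the others. HXK2 was lowest on array 1, at 2.81, against 3.04 to 3.12. GIS1 was highest on array 3, at -0.41, against -0.61 to -0.56. The 3 values came from 3 different arrays, and their causes were not tested.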

How the results depend on the processing

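Leaving out each array in turn, medians over spots, keeping outlier spots, no background subtraction, negative-control background, the deposited table and the RNA signal alone kept the direction and call of every member level and pair difference, and the same counts of members within 1.5 times. Loess within arrays changed most: PGM1 read -0.36, PGM2 0.32, GLG2 0.33, GLC3 -0.060 (adjusted p 0.195, limma), GAC1 -0.26 and GPH1 -0.58, 2 members lay above the median gene, PGM2 minus PGM1 was 0.68, GPH1 minus GDB1 -0.36 and GSY2 minus GSY1 -0.83. With Agilent's processed signals PGM2 read 0.093, 2 members lay above, PGM2 minus PGM1 was -0.037 and GSY2 minus GSY1 was -0.38; normexp gave -0.041 for that pair. Members differing between scan sessions numbered 2 with the slide as a random block, 1 (GSY1) with arrays centred only on their medians, and 8 with only spots well above background. Over all genes that count was 165, between 5 and 174 without single arrays, 2242 with the block and 0 by RNA signal alone (1179 at an unadjusted p of 0.05). The causes were not tested. The RNA signal of GPH1 and GAC1 on arrays 4 and 5 limits their values. Samples could not be paired because all arrays form 1 group, so only genes within an array were compared as pairs.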

Other observations

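The array design's own annotation of the GPH1 probe names its molecular function as glycine amidinotransferase, while the systematic name YPR160W on the same probe is that of GPH1 in RefSeq. The other 9 members carried descriptions that named glycogen metabolism, a glycogen or sugar phosphate enzyme, or a phosphatase.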
